A study of Mus musculus with 16 samples.

Results

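The SLC25 genes mostly encode carriers that move metabolites across the inner mitochondrial membrane. Their transcripts were followed in mouse hearts without the actin-regulating protein CAP2. Members were all genes named Slc25a followed by a number, pseudogenes aside, which gave 44 of 38087 gene rows in experiment A and 47 of 54232 in experiment B. All 44 were among the 47 by Ensembl identifier, and 1 pseudogene was dropped. The other 3 (Slc25a51, Slc25a53 and Slc25a54) were listed in experiment A under older symbols and were not counted there.

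All mice were C57BL/6. Experiment A held 86-week-old females, 3 wild-type and 3 CAP2 -/-, which lack CAP2 in every cell. Experiment B held 13-week-old mice that all carry 2 loxP-flanked Cap2 alleles (Loxp/Loxp). The 5 Cre- libraries, 3 from females and 2 from males, are called controls. The other 4, 3 from females and 1 from a male, carry Cre driven by the Myh6 promoter, which is active in cardiomyocytes, and are called Cre+. Loss of Cap2 and presence of the Cre transgene came together in experiment B and cannot be told apart. A further Cre+ sample was not analysed here.

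SLC25 carriers are small proteins that span the membrane with repeated helical pairs, and many of them exchange one solute for another. In heart muscle, which makes most of its ATP in mitochondria, they export ATP against ADP, import phosphate, bring in acylcarnitines for oxidation, run the malate-aspartate shuttle that transfers electrons from the cytosol, and supply coenzymes that the mitochondrial matrix enzymes need. Members are grouped here by the substrate each is known to carry.

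The targeted gene followed the labels. Cap2 stood at 197, 217 and 228 CPM (counts scaled to library size, here by TMM) in the wild-type libraries and at 8.34 to 16.2 in CAP2 -/-, and it fell (log2 fold change -4.13, SE 0.20, edgeR adjusted p = 1.00e-07). In experiment B Cap2 stood at 342, 186, 878 and 381 normalized counts in control replicates 1, 3, 4 and 5, somewhat lower in control replicate 2, and at 33, 60, 80 and 87 in Cre+, and it fell there too (log2 -2.22, SE 0.36, limma adjusted p = 0.0161). Leaving out control replicate 1 (adjusted p = 0.0687) or Cre+ replicate 4 (0.0922), or adding the atrial marker level as a covariate (0.369), ended that call. Estimated counts per library in experiment A summed to between 10750175 and 27440478, and mitochondrially encoded genes took 23.0% to 69.5% of the normalized counts in experiment B. None of the 10 cardiomyocyte markers was at 0, and their summed level was 123847 to 137344 CPM in experiment A, 271518 to 434320 normalized counts in the controls and 240461 to 354066 in Cre+. Taken gene by gene, 7 of the 10 were below 0 in each experiment, with a median log2 fold change of -0.11 in A, where Actc1 was called higher, and -0.67 in B, where Pln was called lower and 2 (Pln and Atp2a2) were lower without overlap. Summed atrial markers, 6 genes, were at 117 to 158 CPM in wild type and 3700 to 4582 in CAP2 -/-, and at 105 to 9895 normalized counts in the controls and 83867 to 175240 in Cre+. Most of the CAP2 -/- sum was Nppa (mean 95.35 CPM in wild type, 4265 in CAP2 -/-), the only 1 of 5 tested there that was called. Myl4 (6.28 against 10.6) and Bmp10 (0.18 against 1.81) were also higher without overlap, and Myl7 overlapped. Stard10 was lower without overlap (32.9 against 25.3). In experiment B 0 of the 6 were called, and Nppa alone was higher without overlap. All lay above 0, with log2 fold changes from 1.04 to 7.62 (median 4.61). Myl7, Sln and Myl4 (log2 4.74, 4.48 and 5.17) were above every control in Cre+ replicates 2, 3 and 4. In Cre+ replicate 1 they were within the control range, whose top was control replicate 3. Bmp10 and Stard10 were above every control in Cre+ replicates 3 and 4 alone. Summed fibroblast markers, 10 genes, ran from 2638 to 3081 and from 3122 to 3259 CPM in experiment A, and from 8519 to 31335 and from 28434 to 51018 normalized counts in experiment B. No marker of these lists was at 0 in all libraries, and their part in the results below was not tested except where a covariate is named. Fewer cells of a type and less RNA per cell cannot be told apart in RNA from whole tissue.

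No carrier was called higher in either experiment, and 4 carriers were called lower in one or both. In experiment A, Slc25a25 and Slc25a42 fell, 2 of the 37 members with enough counts to be tested, where 1.35% of the 16297 tested genes passed (adjusted p under 0.05) with 0.841% higher and 0.509% lower. In experiment B, Slc25a34, Slc25a42 and Slc25a22 fell, 3 of 39 tested members, where 1.88% of 12141 tested genes passed with 0.947% higher and 0.931% lower. Slc25a42, a carrier of coenzyme A, was therefore the 1 member called in both experiments, which share no sample. The share of all genes called in both was not worked out, so this count has no background to be judged against.

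The fold changes of the other members mostly lay below 0 without passing. In experiment A, 27 of 37 members were below 0 with a median log2 fold change of -0.08, against a median of 0.0057 over all genes tested. In experiment B, 33 of 39 were below 0 with a median of -0.39, against -0.12 over all genes tested. After TMM scaling 29 of the 39 were below 0 (median -0.30, all genes -0.02), and after quantile normalization 31 (median -0.34, all genes -0.03). The split of all called genes in experiment B, 115 higher and 113 lower, became 151 and 67 with TMM scaling and 211 and 124 with quantile normalization, and each carrier called in these fits was lower. Of the 37 members tested in both experiments, 22 were below 0 in both, 1 was above 0 in both, 5 were below only in A and 9 below only in B. Over all 11806 genes tested in both, 33.3% were below 0 in both. Groups of libraries did not overlap for 7 lower and 2 higher members in experiment A, where 8% and 7.6% of all tested genes were separated in these directions, and for 8 lower and 0 higher members in experiment B, where the shares were 4.79% and 3.87%. With TMM scaling 7 members were lower and 0 higher without overlap in experiment B, where Slc25a12 and Slc25a46 then overlapped between groups. Slc25a42 and Slc25a20 were the 2 of 37 members (5.41%) lower without overlap in both experiments, against 170 of the 11806 genes tested in both (1.44%).

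**Figure D1:**
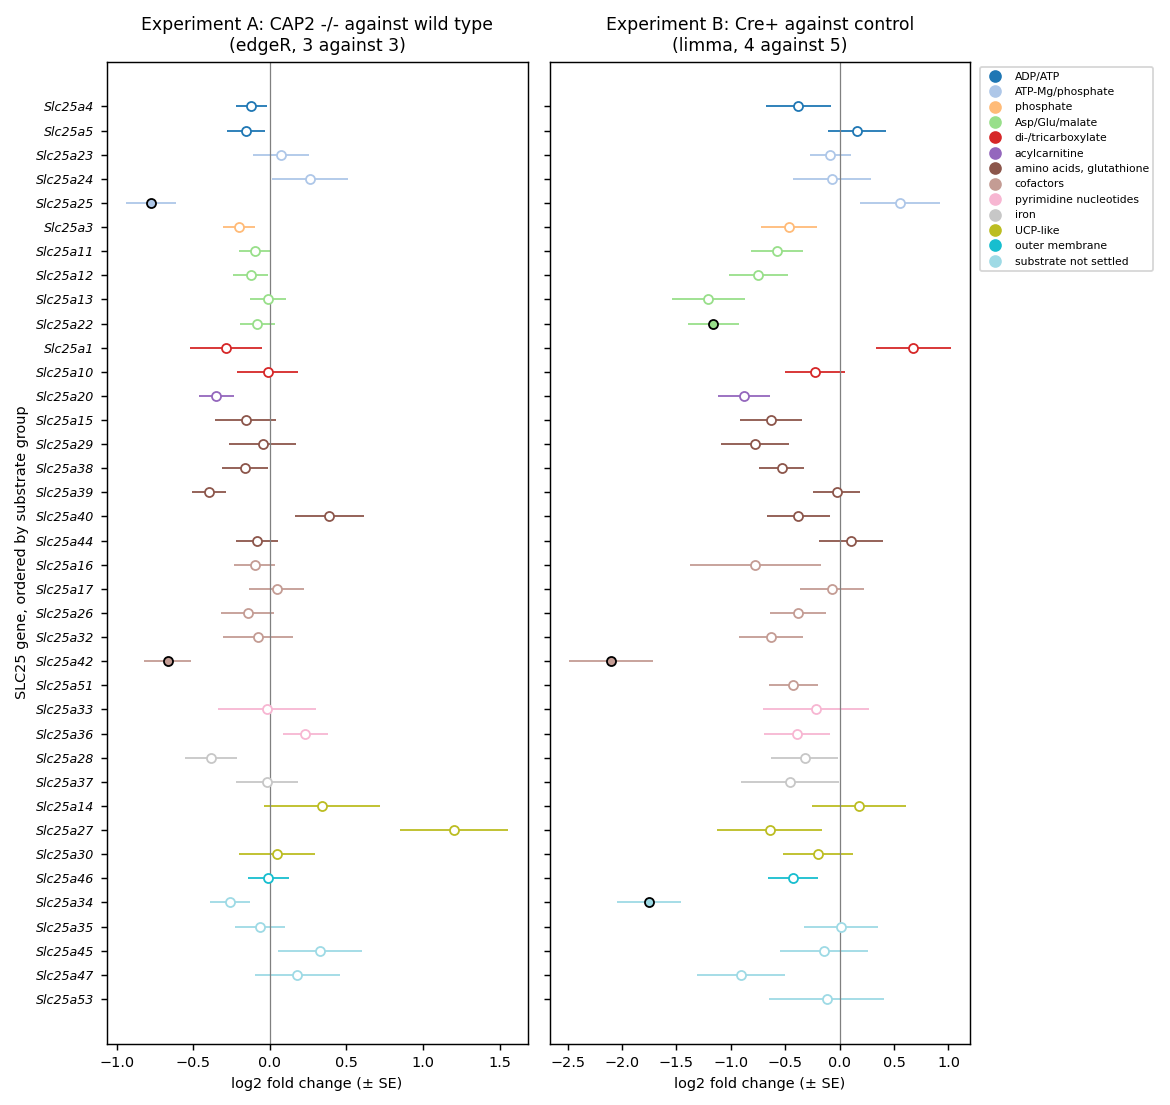
Log2 fold change (± SE) of the tested SLC25 genes reported here, knockout against control, in experiment A (left, CPM) and experiment B (right, log2(value + 1) scale), ordered and coloured by substrate group. Filled symbols with a black edge passed an adjusted p of 0.05: Slc25a25 and Slc25a42 on the left, and Slc25a34, Slc25a42 and Slc25a22 on the right. Slc25a51 and Slc25a53 are shown for experiment B only.

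Among carriers of cofactors, Slc25a42 imports coenzyme A into the matrix in exchange for adenine nucleotides. In experiment A it stood at 128, 98.1 and 95.5 CPM in wild type and at 82.2, 64.4 and 56.5 in CAP2 -/-. Every CAP2 -/- library was below every wild-type library, and Slc25a42 fell to 0.630-fold (log2 -0.67, SE 0.15, adjusted p = 0.0455). In the younger hearts of experiment B Slc25a42 stood at 290, 248, 245, 472 and 136 normalized counts in the controls and at 118, 43, 54 and 48 in Cre+. Again the groups did not overlap, although control replicate 5 and Cre+ replicate 1 came close, and it fell to 0.232-fold (log2 -2.10, SE 0.39, adjusted p = 0.0259). The call in experiment A was lost without wild-type replicates 1, 2 or 3 (adjusted p = 0.187, 0.0504 and 0.0677) or CAP2 -/- replicates 2 or 3 (0.208 and 0.217). In experiment B it was lost without control replicates 1, 2 or 3 (0.0859, 0.0687 and 0.0542), without Cre+ replicates 2, 3 or 4 (0.0951, 0.0903 and 0.126), and with a covariate for the mitochondrial share (0.134) or the atrial marker level (0.699). The direction was lower in every one of these fits.

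Slc25a42 (ENSMUSG00000002346) lies on chromosome 8 from 70184340 to 70212305 on the minus strand of mm10, and Slc25a34 (ENSMUSG00000040740) on chromosome 4 from 141618824 to 141623821, also on the minus strand. Their promoters are shown because these genes had the largest falls among the carriers in experiment B. The sequences are the 250 bases before the RefSeq transcription start (GRCm38.p6, the same build), at chr8:70212282-70212531 and chr4:141623835-141624084, both read on the minus strand. Capitals mark CCAAT, the element of CCAAT-binding factors, and AGGTCA, the half-site of many nuclear receptors, on either strand.
Slc25a42: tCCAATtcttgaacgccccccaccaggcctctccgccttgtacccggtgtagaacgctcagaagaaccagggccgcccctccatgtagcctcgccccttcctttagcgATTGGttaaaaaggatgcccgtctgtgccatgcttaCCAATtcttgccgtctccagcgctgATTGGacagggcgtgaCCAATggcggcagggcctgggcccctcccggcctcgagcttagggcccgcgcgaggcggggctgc
Slc25a34: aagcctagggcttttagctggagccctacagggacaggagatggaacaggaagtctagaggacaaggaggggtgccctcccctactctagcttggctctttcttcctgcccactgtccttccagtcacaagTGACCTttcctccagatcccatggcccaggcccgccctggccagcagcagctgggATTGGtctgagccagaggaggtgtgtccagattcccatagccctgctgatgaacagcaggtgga

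The Slc25a42 window holds CCAAT 5 times, beginning 249, 106 and 65 bases before the start on the gene's own strand and 142 and 81 bases before it on the other. Slc25a34 holds it once, and holds AGGTCA on the other strand beginning 119 bases before the start. Promoters were found for 36 members, which have 46 among the 32851 promoters in all. A member was counted where any of its promoters held the motif, whereas the shares are of single promoters. Counts and shares are therefore not directly comparable. CCAAT occurred in 18 of these 36 members and in 33.8% of all promoters, and AGGTCA in 4 (Slc25a34, Slc25a39, Slc25a45 and Slc25a47) and in 14.0%. The longer estrogen-related receptor motif TNAAGGTCA, which contains AGGTCA, was in 0 of the 36 and in 1.14% of all promoters. The CArG box, the SRF element, was in 1 (Slc25a23) and in 1.47%. These are matches of letters in a window, not measured binding.

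**Figure D2:**
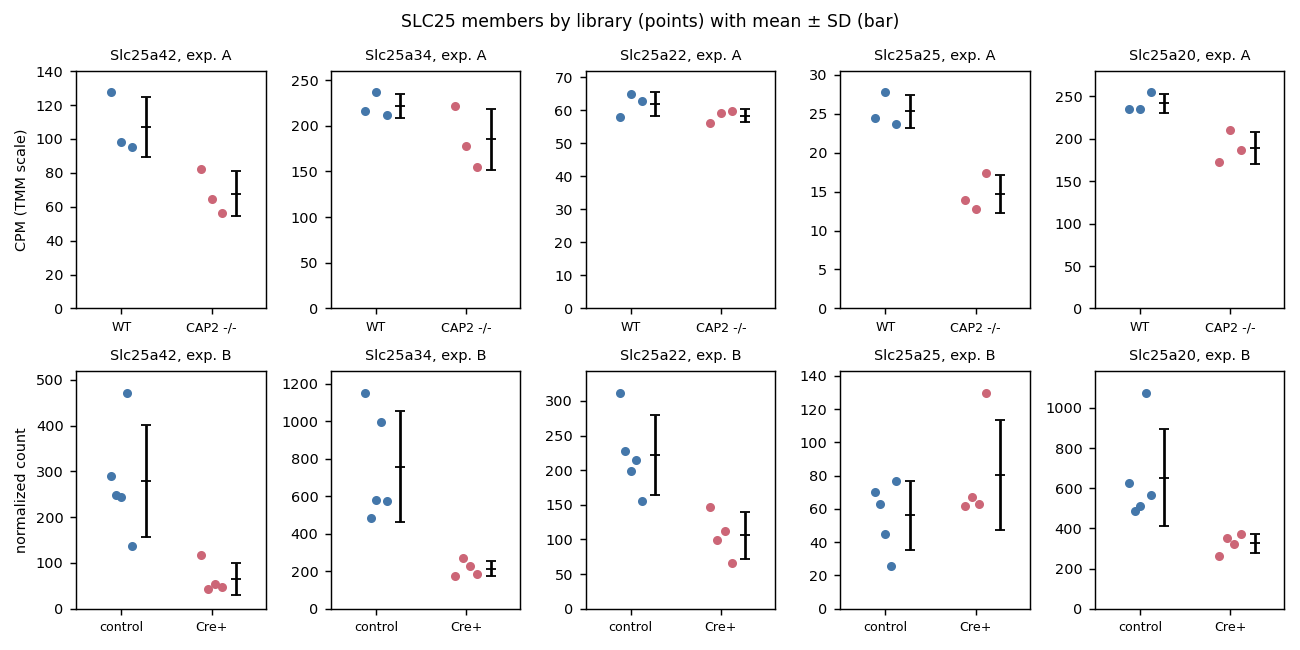
Levels of 5 SLC25 genes in each library (points) with the group mean ± SD (bar), as CPM in experiment A (top, 3 wild-type and 3 CAP2 -/- libraries) and as normalized counts in experiment B (bottom, 5 control and 4 Cre+ libraries). Slc25a42 and Slc25a20 are lower without overlap in both experiments, Slc25a34 and Slc25a22 in experiment B alone, and Slc25a25 in experiment A alone.

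None of the other cofactor carriers described here passed in either experiment. Slc25a51, which carries NAD+, was measured in experiment A under its older symbol. It was at 66.4, 76.6 and 80.2 CPM in wild type and 58.9, 64.2 and 64.6 in CAP2 -/-, apart between groups (log2 -0.25, SE 0.12, edgeR adjusted p = 0.496). In experiment B it was at 244, 256, 331, 414 and 261 normalized counts in the controls and 211, 227, 256 and 186 in Cre+. These groups overlapped (log2 -0.43, SE 0.23, limma adjusted p = 0.287), but were apart after TMM scaling, with Cre+ lower.

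The ATP-Mg/phosphate carriers adjust the adenine nucleotide pool of the matrix and are switched on by calcium. Slc25a25 (ENSMUSG00000026819, chromosome 2, 32414487 to 32451445) stood at 24.5, 27.7 and 23.7 CPM in wild type and at 14.0, 12.7 and 17.4 in CAP2 -/-. The groups were apart, and Slc25a25 fell to 0.584-fold (log2 -0.78, SE 0.16, adjusted p = 0.0223). Its call was lost without wild-type replicates 1, 2 or 3 (adjusted p = 0.0609, 0.0907 and 0.0591) or CAP2 -/- replicates 1 or 2 (0.0511 and 0.131), always with a log2 fold change from -0.68 to -0.82. In experiment B the same gene stood at 70, 63, 45, 26 and 77 normalized counts in the controls and at 62, 67, 63 and 130 in Cre+, with overlapping groups (log2 0.56, SE 0.37, adjusted p = 0.388). The difference between the experiments was not tested. Slc25a25 overlaps Naif1 on the opposite strand, and how reads were divided between them is not given in the sources used here; Naif1 was at 8.48 to 9.77 CPM in wild type and 8.08 to 8.58 in CAP2 -/- (log2 -0.12, adjusted p = 0.892).

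Slc25a23 was the most abundant member of this group per length. It stood at 67.0, 58.8 and 67.9 CPM in wild type and at 45.9, 79.4 and 78.3 in CAP2 -/-, with the lowest and the highest value both in CAP2 -/- (log2 0.07, SE 0.18, adjusted p = 0.938). Experiment B gave 345, 262, 312, 262 and 218 normalized counts in the controls and 272, 261, 298 and 243 in Cre+ (log2 -0.09, SE 0.19, adjusted p = 0.806), again overlapping. Within each library of experiment A the ratio of Slc25a25 to Slc25a23, which no scaling of the library changes, was lower in CAP2 -/- by a log2 difference of -0.82. The groups did not overlap (two-sided exact permutation p = 0.1, the smallest that 3 against 3 libraries allow).

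Of the carriers that serve glutamate, aspartate and the malate shuttle, Slc25a22, a carrier that brings glutamate in together with a proton, was called in experiment B. Slc25a22 (ENSMUSG00000019082, chromosome 7, 141429744 to 141437892) stood at 312, 228, 199, 214 and 156 normalized counts in the controls and at 147, 99, 112 and 66 in Cre+. Every Cre+ library was below every control, the nearest being 147 against 156, and Slc25a22 fell to 0.447-fold (log2 -1.16, SE 0.23, adjusted p = 0.0370). It missed the threshold after TMM scaling (adjusted p = 0.0540), without the sex term (0.0726), in females alone (0.0874), and with the mitochondrial share (0.130) or the atrial marker level (0.898) as a covariate. It also missed it without control replicates 1, 2 or 3 (0.113, 0.0903 and 0.0519) or Cre+ replicates 2, 3 or 4 (0.122, 0.113 and 0.172). In experiment A it stood at 57.9, 65.0 and 62.8 CPM in wild type and at 56.3, 59.1 and 59.8 in CAP2 -/-, overlapping (log2 -0.08, SE 0.12, adjusted p = 0.883).

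The 4 tested members of this group were all below 0 in both experiments, with a median log2 fold change of -0.09 in A and -0.95 in B, and 3 of them did not overlap between the groups of B (Slc25a12 did after TMM scaling). Slc25a12 and Slc25a13, the aspartate/glutamate carriers of the shuttle, stood in the controls at 562 to 1476 and at 245 to 1159 normalized counts, with both highest values in control replicate 4. In Cre+ Slc25a12 was at 471, 467, 438 and 381 (log2 -0.75, SE 0.27, adjusted p = 0.155) and Slc25a13 at 189, 194, 122 and 176 (log2 -1.21, SE 0.33, adjusted p = 0.0863). Leaving out control replicate 4, Slc25a13 passed (limma adjusted p = 0.0449). In experiment A their log2 fold changes were -0.13 (adjusted p = 0.781) and -0.01 (adjusted p = 0.986).

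Slc25a11, which exchanges malate for oxoglutarate in the same shuttle, was the second most abundant carrier per length. It stood at 599, 594 and 603 CPM in wild type and at 564, 534 and 582 in CAP2 -/-, apart but close (log2 -0.10, SE 0.10, adjusted p = 0.828). The values in experiment B were 2232, 1641, 1388, 3328 and 2255 normalized counts in the controls and 1218, 1319, 1132 and 1620 in Cre+ (log2 -0.58, SE 0.24, adjusted p = 0.190), and 1 of the controls lay within the Cre+ range. The shuttle enzymes Got1, Got2, Mdh1 and Mdh2 were not called in either experiment.

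Slc25a20, the carnitine/acylcarnitine carrier, takes long-chain acylcarnitines into the matrix for oxidation. It stood at 235, 235 and 255 CPM in wild type and at 173, 210 and 186 in CAP2 -/-, and at 626, 487, 511, 1076 and 564 normalized counts in the controls and 263, 352, 321 and 370 in Cre+. The groups were apart in both experiments, with the knockout libraries lower, but neither difference passed (log2 -0.35, SE 0.11, adjusted p = 0.204 in A; log2 -0.88, SE 0.24, adjusted p = 0.0801 in B). The difference in B passed without control replicate 4 (adjusted p = 0.0479) or 5 (0.0419), over a range of 0.0419 to 0.948 across the alternatives.

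The enzymes that make and use acylcarnitines on both sides of this carrier were given for comparison. Of 8 enzymes of the carnitine and malate-aspartate systems, 1 was called lower in experiment A and 1 in experiment B. In A 4 of the 8 were below 0 (median log2 -0.01). In B all 8 were (median -0.62, all genes -0.12), and 4 had an unadjusted limma p under 0.05. The largest change in B was that of Cpt1b, at 45 to 232 normalized counts in the controls and 100, 13, 18 and 10 in Cre+. Its groups overlapped (log2 -2.21, SE 0.66, limma adjusted p = 0.103). Cpt2, which reforms acyl-CoA in the matrix, stood at 424, 410 and 415 CPM in wild type and at 292, 293 and 309 in CAP2 -/-, and it fell (log2 -0.48, SE 0.10, adjusted p = 0.0260). The call of Cpt2 was lost without any library except CAP2 -/- replicate 1 (highest adjusted p = 0.138), and in experiment B Cpt2 had a log2 fold change of -0.84 (adjusted p = 0.111). Crat, which moves acetyl groups between coenzyme A and carnitine, stood at 2941, 2851, 2519, 2930 and 2438 normalized counts in the controls and at 1522, 1326, 1145 and 1548 in Cre+, and it fell (log2 -0.98, SE 0.21, adjusted p = 0.0452). That call was lost after TMM scaling (adjusted p = 0.0906), with no filter on low values (0.0533), with the mitochondrial share (0.190) or atrial markers (0.790) as a covariate, and without control replicates 1, 2 or 3 (0.128, 0.125 and 0.0866) or Cre+ replicates 2, 3 or 4 (0.148, 0.152 and 0.151). In experiment A the log2 fold change of Crat was -0.32 (adjusted p = 0.342).

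The ADP/ATP carriers were the largest part of the family. Slc25a4, the form of heart and skeletal muscle, stood at 5275, 5248 and 4812 CPM in wild type and at 4940, 4455 and 4700 in CAP2 -/-, overlapping (log2 -0.12, SE 0.10, adjusted p = 0.761). For the younger hearts the values were 47260, 46465, 30571, 26751 and 42490 normalized counts in the controls and 32278, 28970, 23042 and 33651 in Cre+, also overlapping (log2 -0.38, SE 0.30, adjusted p = 0.471). It made up 54.4% to 57.6% of all SLC25 counts in experiment A and 56.3% to 79.6% in experiment B, the lowest share being that of control replicate 4.

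Slc25a5, the form found in most tissues, was at 150 to 192 CPM in wild type and 142 to 160 in CAP2 -/- (log2 -0.16, adjusted p = 0.742). The younger hearts held it at 503 to 1109 normalized counts in the controls and 666 to 994 in Cre+ (log2 0.16, adjusted p = 0.748). The testis form Slc25a31 was too low to be tested, at most 3.98 estimated counts in A and 4 normalized counts in B.

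Summed over the tested members, the carriers stood at 9370, 9423 and 8844 CPM in wild type and at 8571, 8028 and 8370 in CAP2 -/-, with the groups apart. Without Slc25a4 the sums were 4094, 4175 and 4031 against 3631, 3573 and 3670. In experiment B the sums were 42312 to 64130 normalized counts in the controls and 32636 to 44718 in Cre+, overlapping. Without Slc25a4 they were 11741 to 20736 in the controls and 9594 to 11067 in Cre+, without overlap, but overlapped after TMM scaling (10028 to 21327 against 9106 to 12633). As a share of all nuclear counts the family took 0.905% to 0.951% in wild type, 0.802% to 0.826% in CAP2 -/-, 1.11% to 1.65% in the controls and 0.812% to 1.13% in Cre+. These sums carry no test.

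**Figure D3:**
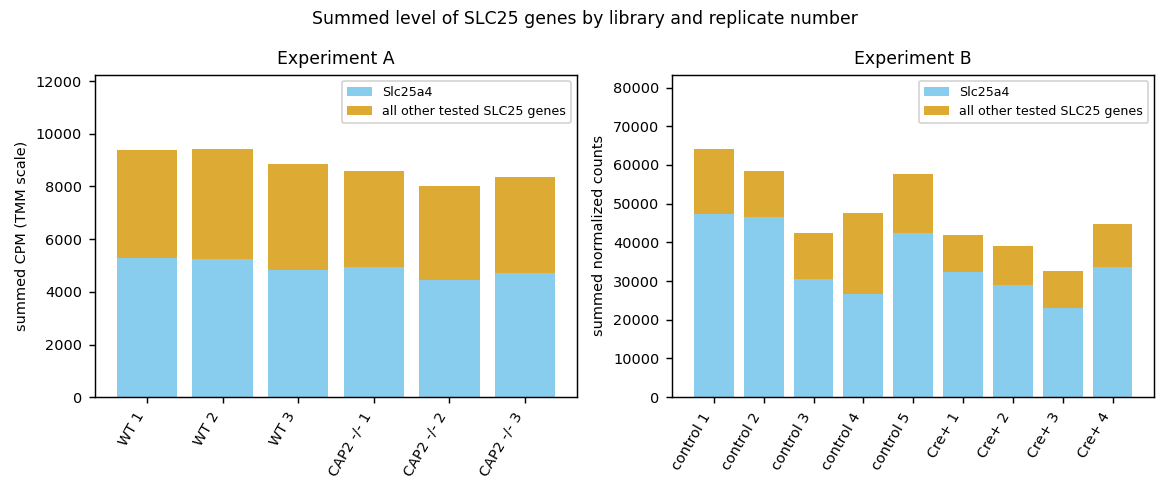
Summed level of the tested SLC25 genes in each library, as CPM in experiment A (left, 37 genes) and as normalized counts in experiment B (right, 39 genes), with Slc25a4 in blue and all other members in yellow. The yellow part is smaller in each knockout library than in each control library of the same experiment on the scale shown (not after TMM scaling in experiment B), while the blue part overlaps between groups.

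Slc25a3 imports phosphate for ATP synthesis and also carries copper to the matrix. It stood at 1411, 1406 and 1415 CPM in wild type and at 1160, 1200 and 1319 in CAP2 -/-, and the groups were apart but the difference did not pass (log2 -0.20, SE 0.10, adjusted p = 0.537). Slc25a3 in experiment B stood at 6171, 3756, 3365, 7536 and 5639 normalized counts in the controls and at 2910, 3530, 3021 and 4530 in Cre+, overlapping (log2 -0.47, SE 0.26, adjusted p = 0.302). The gene has 2 mutually exclusive exons, one of which is used in the heart and skeletal muscle form. In the exon rows of experiment A, coding transcripts hold either an upstream or a downstream exon, the gene being on the minus strand. The upstream exon lies on chromosome 10 from 91122207 or 91122108 to 91122331 (125 or 224 bases), and both forms were counted together. The downstream exon runs from 91121922 to 91122043 (122 bases).

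The exon comparison left out reads in other parts of Slc25a3. Of the reads counted in the upstream or downstream exon, almost all fell in the upstream exon. Its share was 98.3%, 99.1% and 98.9% in wild type and 98.0%, 99.0% and 99.8% in CAP2 -/-, of 296 to 540 counts per library over both exons. The groups overlap, and the 95% Wilson intervals, which cover counting error only, span 95.6% to 99.96% over the 6 libraries.

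Slc25a34 transports a substrate that is not settled and was the most abundant such member in experiment A. In experiment B it stood at 1153, 484, 581, 998 and 573 normalized counts in the controls and at 177, 269, 226 and 186 in Cre+. All Cre+ libraries were well below all controls, and Slc25a34 fell to 0.297-fold (log2 -1.75, SE 0.30, adjusted p = 0.0201). Its call held beside a covariate for the mitochondrial share, and was lost with one for the atrial marker level (adjusted p = 0.497). Leaving out control replicate 1 (0.0625) or Cre+ replicates 2, 3 or 4 (0.0519, 0.0634 and 0.109) also ended it.

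In experiment A Slc25a34 stood at 216, 237 and 212 CPM in wild type and at 222, 178 and 155 in CAP2 -/-, with CAP2 -/- replicate 1 inside the wild-type range (log2 -0.26, SE 0.13, adjusted p = 0.520). Whether the effect differed between the experiments was not tested. The other members without a settled substrate, Slc25a35, Slc25a45 and Slc25a47 in A and these with Slc25a53 in B, had log2 fold changes from -0.06 to 0.33 in A and from -0.91 to 0.02 in B, and none passed.

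Slc25a39, which takes glutathione into the matrix, stood highest per length among the carriers of amino acids and glutathione. It was at 207, 219 and 187 CPM in wild type and at 162, 153 and 152 in CAP2 -/-, apart between groups (log2 -0.40, SE 0.11, edgeR adjusted p = 0.109). It passed with DESeq2 (adjusted p = 0.0379). The levels in experiment B were 792, 593, 675, 514 and 701 normalized counts in the controls and 519, 629, 687 and 733 in Cre+, overlapping (log2 -0.03, SE 0.21, adjusted p = 0.951). Its paralog Slc25a40 was at 5.09 to 6.96 CPM in wild type and 6.93 to 8.87 in CAP2 -/-, and the ratio of Slc25a39 to Slc25a40 was lower in CAP2 -/- by a log2 difference of -0.80 without overlap (exact permutation p = 0.1, the smallest possible). Slc25a38, the glycine carrier used for heme synthesis, was at 99 to 150 normalized counts in the controls and 66 to 98 in Cre+ (log2 -0.53, SE 0.21, adjusted p = 0.178).

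The iron carriers mitoferrin 1 (Slc25a37) and mitoferrin 2 (Slc25a28) supply iron for heme and iron-sulfur clusters. Slc25a28 was at 23.9, 34.2 and 22.0 CPM in wild type and at 20.9, 19.4 and 20.8 in CAP2 -/-, apart by a small margin (log2 -0.38, SE 0.17, adjusted p = 0.442). Slc25a28 in experiment B was at 232, 125, 214, 66 and 135 normalized counts in the controls and at 150, 94, 139 and 108 in Cre+ (log2 -0.32, SE 0.31, adjusted p = 0.554). Slc25a37 overlapped between groups in both experiments.

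The remaining groups had no member called. Slc25a33, a pyrimidine nucleotide carrier, was at 38.0, 45.4 and 23.8 CPM in wild type and 37.6, 22.6 and 45.2 in CAP2 -/- (log2 -0.02, SE 0.32, adjusted p = 0.993). Experiment B gave Slc25a33 values of 313, 72, 87, 76 and 298 normalized counts in the controls and 74, 138, 125 and 127 in Cre+ (log2 -0.22, SE 0.49, adjusted p = 0.814). Its spread within groups was wide in both experiments, with 2 controls far above the other 3.

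Slc25a10, the dicarboxylate carrier, was at 15.7, 12.9 and 12.7 CPM in wild type and 15.2, 10.01 and 15.8 in CAP2 -/- (log2 -0.01, SE 0.20, adjusted p = 0.992). Levels in experiment B were 73, 86, 93, 48 and 48 normalized counts in the controls and 78, 41, 66 and 61 in Cre+ (log2 -0.23, SE 0.27, adjusted p = 0.647). The citrate carrier Slc25a1, the other tested member of this group, had the highest log2 fold change of the family in experiment B, 0.68 (SE 0.35, adjusted p = 0.272).

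The UCP-like carriers Slc25a14, Slc25a27 and Slc25a30 resemble the uncoupling proteins in sequence. Slc25a30 was at 9.66, 6.54 and 5.39 CPM in wild type and 8.70, 7.15 and 6.74 in CAP2 -/- (log2 0.05, SE 0.25, adjusted p = 0.971). Experiment B held it at 41, 47, 107, 48 and 70 normalized counts in the controls and 43, 59, 64 and 44 in Cre+ (log2 -0.20, SE 0.32, adjusted p = 0.737). Slc25a27 had the highest log2 fold change of the family in experiment A, with 1.26, 1.57 and 2.22 CPM in wild type and 4.35, 2.93 and 4.32 in CAP2 -/-. These groups were apart, but the difference did not pass in edgeR (log2 1.21, SE 0.35, adjusted p = 0.128), and in experiment B its log2 fold change was -0.64 (adjusted p = 0.449).

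Slc25a46 sits in the outer membrane, where it takes part in mitochondrial shape rather than in transport. It was at 61.2, 64.3 and 80.5 CPM in wild type and 73.7, 70.4 and 60.7 in CAP2 -/- (log2 -0.01, SE 0.13, adjusted p = 0.991). Its values in experiment B were 263, 252, 253, 491 and 281 normalized counts in the controls and 194, 210, 250 and 204 in Cre+ (log2 -0.43, SE 0.23, adjusted p = 0.291). The groups of experiment B were apart by 2 counts and overlapped after TMM scaling.

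Levels spanned a wide range between carriers. Per kilobase of GENCODE exon sequence, Slc25a4 was at 2173 ± 110 CPM in wild type (SD, n = 3), Slc25a11 at 282 ± 2.0, Slc25a3 at 254 ± 0.9 and Slc25a5 at 101 ± 14. The same 4 genes were the highest in the controls of experiment B, at 16450 ± 4014, 1023 ± 353, 954 ± 312 and 492 ± 159 normalized counts per kilobase (SD, n = 5), where the intervals of mean ± SD of Slc25a11, Slc25a3 and Slc25a5 overlapped each with the next. Slc25a34 was next in experiment B at 284 ± 112 in the controls and stood at 80.3 in Cre+, below Slc25a39 at 233.

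**Figure D4:**
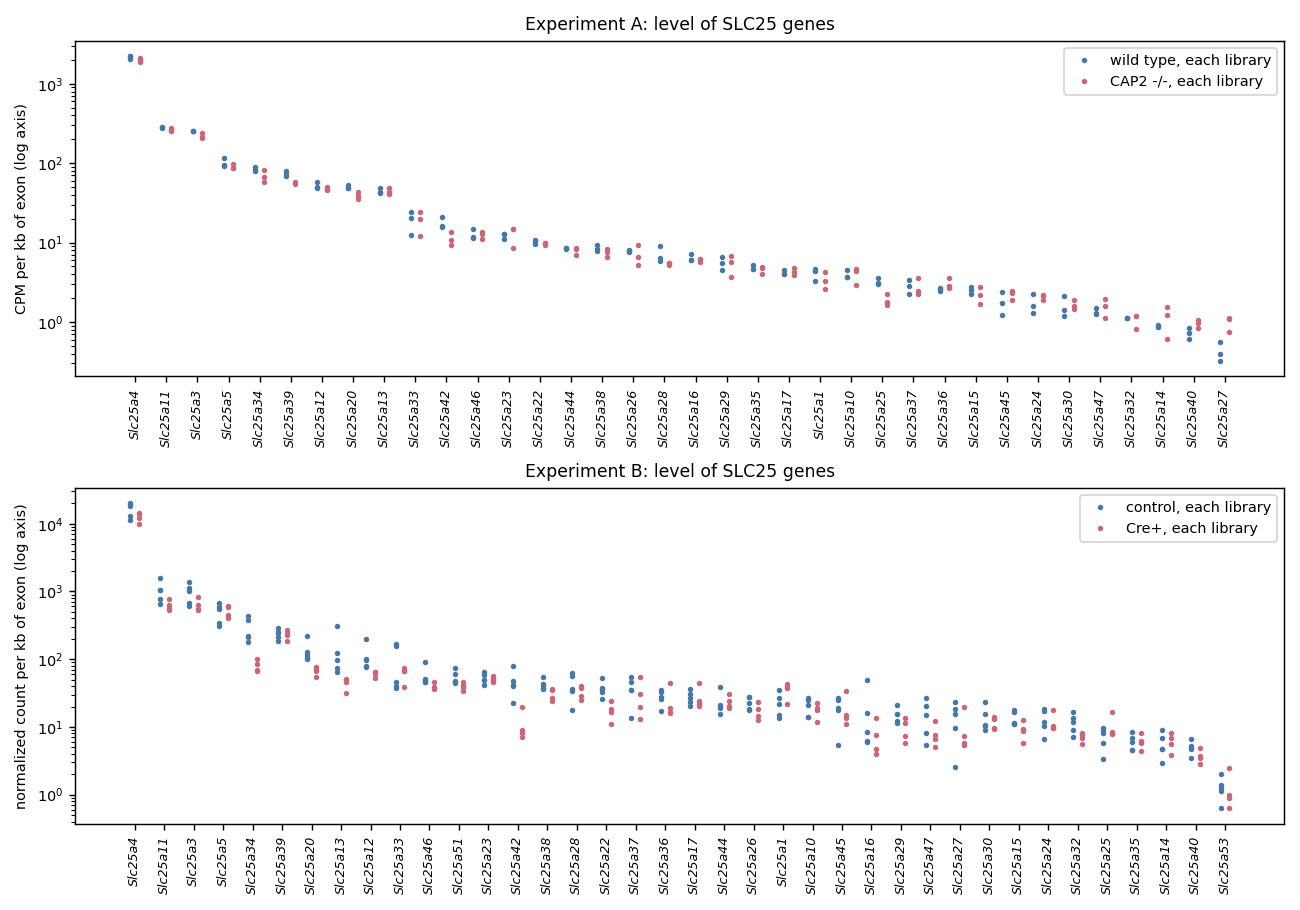
Level of the tested SLC25 genes reported here per kilobase of exon sequence in every library (log axis), ordered by the control mean, in experiment A (top, CPM) and experiment B (bottom, normalized counts). Slc25a4 stands apart at the top in both, followed by Slc25a11, Slc25a3 and Slc25a5, and the controls and Cre+ libraries of Slc25a34, Slc25a42 and Slc25a22 separate in the lower panel.

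Ratios of paralogs with like substrates were compared within libraries for 9 pairs in both experiments, 18 tests in all. None passed after Benjamini-Hochberg adjustment (lowest adjusted p = 0.429), and 1 had an unadjusted p under 0.05. That was the ratio of Slc25a13 to Slc25a12 in experiment B, lower in Cre+ by a log2 difference of -0.53 with overlapping groups (two-sided exact permutation p = 0.0317). The ratio of Slc25a16 to Slc25a42 was higher in CAP2 -/- by 0.58 without overlap (exact permutation p = 0.1, the smallest possible) and in Cre+ by 1.24 with overlap (exact permutation p = 0.119).

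Genes around the family were followed as well. Among members of the same protein family with other symbols (Ucp1, Ucp2, Ucp3, Mtch1 and Mtch2), 0 of 4 tested passed in experiment A and 1 of 5 in experiment B. Ucp3, a muscle uncoupling protein, stood at 516, 384, 246, 408 and 228 normalized counts in the controls and at 170, 181, 107 and 33 in Cre+. The groups were apart and Ucp3 fell (log2 -1.87, SE 0.39, adjusted p = 0.0393), whereas in experiment A its log2 fold change was -0.01 (adjusted p = 0.992). The call was lost after TMM scaling (adjusted p = 0.0506), without the sex term (0.0827), in females alone (0.0805), with a covariate for the mitochondrial share (0.0830) or the atrial markers (0.898), and without control replicates 1 or 2 (0.119 and 0.0922) or Cre+ replicates 2, 3 or 4 (0.0770, 0.126 and 0.172).

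The machinery that inserts carriers into the inner membrane, the TIM22 and TOM subunits, had 0 of 13 tested genes called in experiment A and 0 of 12 in experiment B, with 0 at an unadjusted p under 0.05 in both fits. Over all genes tested, 10.4% had an unadjusted p under 0.05 in A and 22.1% in B. The 3 porins of the outer membrane and 20 other inner membrane transporters likewise had 0 called in edgeR and in limma, with 0 and 1 at an unadjusted p under 0.05 in A and 1 and 4 in B. Among 11 regulators of mitochondrial biogenesis and fat oxidation, 0 were called in either experiment, with 3 and 6 at an unadjusted p under 0.05. Their median log2 fold change was -0.04 in A and -0.79 in B, where 10 of 11 were below 0 and 4 were lower without overlap. Over all genes tested in B, 7108 of 12141 were below 0, the median was -0.12 and 4.79% were lower without overlap.

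The 8 members tested in neither experiment were Slc25a2, Slc25a18, Slc25a21, Slc25a31, Slc25a41, Slc25a43, Slc25a48 and Slc25a54, the last of which is not counted among the 44. Their highest value was 8.77 estimated counts in any library of A and 10 normalized counts in B. The authors' deposited table for experiment A gave 4 members an adjusted p under 0.05: Slc25a25 (0.000926), Slc25a42 (0.00461), Slc25a39 (0.0320) and Slc25a27 (0.0444). The first 3 of these have negative log2 fold changes there and Slc25a27 a positive one. In GENCODE, 23 members overlap another gene, among them Slc25a25, Slc25a3, Slc25a11, Slc25a12, Slc25a39 and Slc25a46, whereas Slc25a42, Slc25a34, Slc25a22, Slc25a20 and Slc25a4 overlap none.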

How the data were processed

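Per the labels' protocols, heart RNA libraries came from the Ion Total RNA-Seq Kit v2 (A) and a stranded TruSeq kit (B). The submitters' processing notes name STAR 2.6.0c, DESeq and build mm10 without a role. Sources used here do not name the counting tool, strand setting or annotation. The authors' deposited values of experiment A are estimated counts of genes and exons, and 26.5% of the gene values above 0 are whole. Their deposited comparison holds a mean normalized signal, log2 fold changes, a score and p-values. The deposited values of experiment B are whole normalized counts, treated as a score because how they were normalized is not stated; their depth is unknown and they received no count test.

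Estimated counts were rounded and tested with edgeR 4.0.16 (R 4.3.3; TMM, filterByExpr, robust quasi-likelihood). Genes of experiment B averaging at least 10 entered limma 3.58.1 (limma-trend, robust; log2(value + 1); sex term), a scale that understates the change of low genes. P-values were adjusted by Benjamini-Hochberg over all genes tested, and called means an adjusted p under 0.05. DESeq2 1.42.0 was an alternative for A. Scripts were tested on simulated data. Levels per kilobase divide the same values by GENCODE M21 exon lengths, and family sums add them without regard to length. Paralog ratios, log2 of values plus 1 within a library, were tested with exact permutation (scipy 1.17.1).

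Members, substrate groups and gene lists were chosen with earlier results of these data known. Full values are given for members called in either experiment, for the member of each substrate group with the highest level per length in experiment A, and for members whose groups do not overlap in both; further members and genes were named after their values were seen. The labels do not state that each library is a separate animal, although the column names carry separate numbers and the groups of B hold both sexes; where libraries shared an animal, p-values would measure technical spread. Counts and sums cover all members, but 1 is not reported here by name. Proteins are not shown here.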

Additional observations from a re-analysis of the deposited data

Results flagged for a closer look

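Dixon's gap criterion was applied to groups of 4 or 5 libraries of experiment B. The highest or lowest library stood far from the rest in 12 groups. In all 80 groups were examined, for SLC25 genes and for the family share. The criterion flags about 1 in 20 groups of independent, normally distributed values. Counts of genes from the same libraries need not behave so, and that rate does not measure how unusual the 12 are. Control replicate 4 held 6 of the 12, being highest for Slc25a20 (1076 normalized counts), Slc25a13 (1159), Slc25a12 (1476), Slc25a46 (491), Slc25a44 (139) and Slc25a16 (235). The library also had the lowest mitochondrially encoded share of the controls (30.4%) and the lowest share of Slc25a4 in the family (56.3%), and the part of these in the values was not tested. Cre+ replicate 1 stood apart for Slc25a42 (118), Slc25a36 (425) and Slc25a27 (77), Cre+ replicate 3 for Slc25a17 (126) and Slc25a24 (61), and Cre+ replicate 4 for Slc25a25 (130). All 12 were the highest value of their group. Without control replicate 4, 5 members were called in experiment B in place of 3, all lower.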

How the results depend on the processing

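Called members numbered 2 in experiment A, against 3 with DESeq2, 1 with the replicate block, and 0 to 1 when 1 library was left out. In experiment B they numbered 3, against 2 after TMM scaling, without sex or in females alone, 1 with the mitochondrial share and 0 with the atrial markers as covariate, and 0 to 5 when 1 library was left out (0 when it was control 1 or Cre+ 2, 3 or 4, and 5 when it was control 4). Over all genes, the 220 calls of experiment A became 391 with DESeq2, 512 with no filter on low counts and 126 to 275 with 1 library left out. The 228 of experiment B became 346 with no filter on low values, 335 after quantile normalization, 36 with the mitochondrial share and 9 with the atrial markers as covariate, 394 with the replicate block and 39 to 695 with 1 library left out. A covariate leaves fewer residual degrees of freedom, and both covariates move with the group or between libraries; beyond that the cause was not tested.

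Deviations of same-numbered libraries from their group means correlated at -0.17, -0.14 and -0.03 in A and at 0.24, -0.11, 0.18 and 0.03 in B. So few libraries cannot show whether the numbers pair the samples. The replicate block, which in B keeps replicates 1 to 4, is therefore not read as a paired analysis. In B the block also takes up sex, because same-numbered libraries there are of the same sex. Slc25a25 (adjusted p = 0.0690) and Cpt2 (0.102) in A and Crat (0.0716) in B missed the threshold under the block. Of the carriers given with fold changes, those near 0 changed sign, and the cause was not tested. With 1 library left out, log2 fold changes in A ran from -0.087 to 0.063 for Slc25a13, -0.052 to 0.28 for Slc25a23, -0.25 to 0.22 for Slc25a33, -0.089 to 0.12 for Slc25a46, -0.14 to 0.17 for Slc25a10 and -0.13 to 0.34 for Slc25a30. In B they ran from -0.17 to 0.069 for Slc25a39, -0.47 to 0.20 for Slc25a33 and -0.38 to 0.058 for Slc25a30. In B, TMM scaling gave 0.070 for Slc25a39 and 0.0081 for Slc25a23, the replicate block 0.0032 for Slc25a39 and 0.029 for Slc25a33, and the mitochondrial covariate -0.20 for Slc25a5 and 0.026 for Slc25a10. Slc25a42, Slc25a25, Slc25a34, Slc25a22 and Slc25a20 kept their direction in every alternative run, and 0 of 18 paralog ratios passed in each. The depth of experiment B is unknown, which leaves no floor for its low carriers.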
